A study of Mus musculus with 2 samples.

Results

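The 39 Hox genes of the mouse were followed in open chromatin of regulatory T cells. They were taken from the GENCODE M21 annotation as every protein-coding gene named Hoxa, Hoxb, Hoxc or Hoxd with a number, and they are 39 of 21938 protein-coding genes on chromosomes 1 to 19, X and Y. They lie in 4 clusters, with 11 genes in HoxA on chromosome 6, 10 in HoxB on chromosome 11, 9 in HoxC on chromosome 15 and 9 in HoxD on chromosome 2. Each cluster was examined with 20 kb on either side, here called its window, and the 4 windows span 652 kb of the mm10 assembly.

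The measurement was ATAC-seq, in which the Tn5 transposase cuts accessible DNA and reads pile up as peaks over open chromatin. The only group was primary regulatory T cells of the strain Foxp3CreERT2 x Rosa26YFP, from an adult male aged 4 months. Per the labels the cells trace back to bone marrow hematopoietic cells, and the strain's name joins a tamoxifen-inducible Cre at Foxp3, the gene of the factor that defines these cells, to a fluorescent reporter at Rosa26. The labels give no treatment. The 2 libraries were technical replicates of 1 biological replicate, and the deposited peaks came from their pooled reads, so no spread between animals exists and no test was made.

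Hox genes encode homeodomain transcription factors that give cells along the body axis their regional identity. Within a cluster the genes are numbered by paralogue group, from group 1, used towards the head, to group 13, used towards the tail, and in embryos they are switched on in roughly that order. Polycomb proteins keep silent Hox genes compacted, trithorax proteins keep active ones on, and CTCF, an insulator protein, separates the active from the silent stretch. In blood formation several Hox genes of the A and B clusters act in stem and progenitor cells and are turned down as cells mature.

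The sequences below are of the plus strand, 100 bases on either side of a peak summit with the summit base between them, read from GRCm38.p6, the assembly of mm10. Capitals mark matches on either strand to 11 consensus motifs that were searched, which are spelled out with the motif results. The first 4 are the peaks of highest signal in each cluster and the fifth is the peak of highest −log10 p. The last 3 hold the CTCF consensus, and of these only the Hoxd3os1 peak is in the stricter peak list.
Hoxa4 promoter, chr6:52191862-52192062: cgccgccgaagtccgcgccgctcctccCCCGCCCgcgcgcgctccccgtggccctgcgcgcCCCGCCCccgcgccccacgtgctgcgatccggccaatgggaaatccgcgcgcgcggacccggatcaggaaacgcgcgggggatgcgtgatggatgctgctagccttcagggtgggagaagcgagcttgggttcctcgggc
HoxB, between Hoxb9 and Hoxb8, chr11:96278854-96279054: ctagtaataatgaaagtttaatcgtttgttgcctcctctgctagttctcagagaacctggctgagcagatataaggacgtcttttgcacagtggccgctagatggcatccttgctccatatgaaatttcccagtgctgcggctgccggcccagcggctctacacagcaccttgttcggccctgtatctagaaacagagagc
Hoxc6 intron, chr15:102999257-102999457: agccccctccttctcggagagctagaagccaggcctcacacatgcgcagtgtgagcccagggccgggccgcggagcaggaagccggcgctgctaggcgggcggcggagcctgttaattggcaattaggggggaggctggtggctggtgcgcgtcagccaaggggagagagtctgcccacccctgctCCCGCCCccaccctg
HoxD, exon of Haglr, chr2:74749342-74749542: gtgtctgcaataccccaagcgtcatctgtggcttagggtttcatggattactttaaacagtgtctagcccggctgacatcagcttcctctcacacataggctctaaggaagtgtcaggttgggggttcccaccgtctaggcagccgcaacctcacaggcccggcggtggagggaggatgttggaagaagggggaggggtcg
Hoxa3 intron, chr6:52211642-52211842: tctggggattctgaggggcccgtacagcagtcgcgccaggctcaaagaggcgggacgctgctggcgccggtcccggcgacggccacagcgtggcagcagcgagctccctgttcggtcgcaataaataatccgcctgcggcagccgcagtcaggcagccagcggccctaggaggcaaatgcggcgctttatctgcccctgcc
Hoxd3os1 promoter, chr2:74715837-74716037: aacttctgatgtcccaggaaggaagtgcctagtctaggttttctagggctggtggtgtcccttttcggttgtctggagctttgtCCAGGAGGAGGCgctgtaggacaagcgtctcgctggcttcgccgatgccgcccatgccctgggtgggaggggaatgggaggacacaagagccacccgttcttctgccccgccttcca
Hoxb5 promoter, chr11:96303137-96303337: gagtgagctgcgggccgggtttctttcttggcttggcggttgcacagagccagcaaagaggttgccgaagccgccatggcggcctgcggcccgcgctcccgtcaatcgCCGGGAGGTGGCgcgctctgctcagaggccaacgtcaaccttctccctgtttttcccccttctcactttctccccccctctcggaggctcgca
Hoxa11 promoter, chr6:52245927-52246127: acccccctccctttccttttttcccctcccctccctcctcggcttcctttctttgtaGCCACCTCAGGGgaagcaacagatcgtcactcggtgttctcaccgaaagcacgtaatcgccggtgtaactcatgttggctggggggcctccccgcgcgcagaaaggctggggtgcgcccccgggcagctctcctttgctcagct

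The cells carried open promoters at the T cell markers of their label. All 10 regulatory T cell markers fixed for the check had a promoter summit, against 52.2% of all protein-coding genes. Foxp3 had a signal of 8.67, Il2ra 9.67, Ikzf2 5.52, Ctla4 5.47 and Tnfrsf18 2.69. The rest of the 10 are genes of T cells at large, with Lat highest at 22.3 and Cd4 lowest at 4.56. Of the other markers 1 of 5 B cell, 2 of 5 myeloid, 2 of 6 stem and progenitor and 1 of 4 erythroid ones had a promoter summit. Pax5, Cebpa, Spi1, Hlf, Meis1 and Gata1 were the markers of other cell types with one, and the part of other cells in the Hox values was not tested. The signal is the authors' enrichment value of a peak and −log10 p its significance in their caller; both are used here only to describe and rank peaks within a list. How deeply the libraries were sequenced cannot be read from the peak lists. The stricter list was cut by the irreproducible discovery rate (IDR), which asks whether a peak ranks alike in replicate calls, and held 34610 peaks. The pseudoreplicated list held 58871.

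Most Hox promoters had no peak in the stricter list. A gene was counted when a summit lay within 1 kb of a transcription start site (TSS) of any of its transcripts, and 9 of 39 Hox genes met this (23.1%, exact Clopper-Pearson 95% interval 11.1 to 39.3%), against 52.2% of all protein-coding genes. In the pseudoreplicated list 19 of 39 did (48.7%, interval 32.4 to 65.2%), against 57.3% of all protein-coding genes. Thus 9 Hox genes had a promoter summit in the stricter list, 10 in the pseudoreplicated list only and 20 in neither. Intervals cover counting error only, and neighbouring Hox genes share peaks: the 9 calls came from 8 peaks.

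Hox promoters outside HoxB are rich in CpG dinucleotides, which in most genes goes with an open promoter. The median ratio of observed to expected CpG within 500 bp of the 5′ end was 0.678 for Hox genes and 0.552 for all protein-coding genes. By cluster it was 0.689 in HoxA, 0.472 in HoxB, 0.651 in HoxC and 0.721 in HoxD. Of the 25 Hox genes with a ratio of at least 0.6, 4 had a promoter summit in the stricter list (16.0%), against 81.7% of all protein-coding genes with such a ratio. The pseudoreplicated list held 13 of the 25 (52.0%), against 86.8%. Among the Hox genes themselves the 9 with a summit had the lower median ratio, 0.594, against 0.711 for the 30 without.

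**Figure D1:**
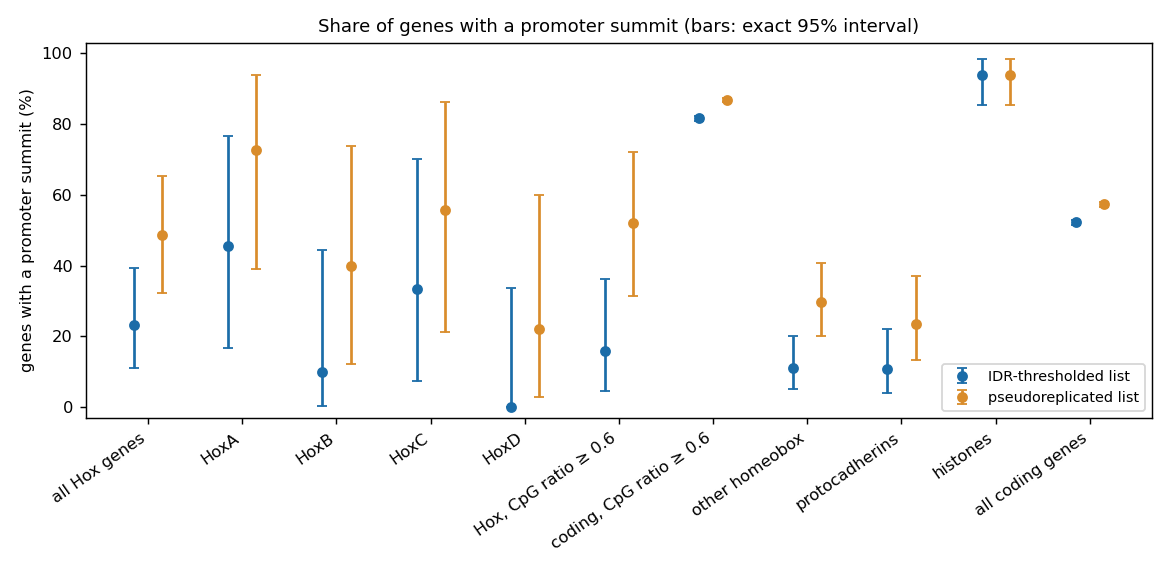
Share of genes with a promoter summit (percent, y axis) by gene set (x axis) in the IDR-thresholded (blue) and pseudoreplicated (orange) lists, with exact 95% intervals. All Hox genes stand at 23.1% and 48.7%, against 52.2% and 57.3% for all protein-coding genes at the right.

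Other gene families that sit in clusters fell on either side. Of 55 clustered protocadherins, cell-surface proteins of neurons, 6 had a promoter summit (10.9%), and of 67 replication-dependent histone genes 63 did (94.0%). Of 81 other developmental homeobox genes, 9 did (11.1%), and 24 did in the pseudoreplicated list (29.6%). Whether the Hox genes differ from these homeobox genes was not tested.

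HoxA held the most open promoters. Its 5 of 11 genes (45.5%, interval 16.7 to 76.6%) compare with 3 of 9 in HoxC (33.3%), 1 of 10 in HoxB and 0 of 9 in HoxD, where a count of 0 allows a share of up to 33.6% by the same interval. The counts became 8 in HoxA, 5 in HoxC, 4 in HoxB and 2 in HoxD with the pseudoreplicated list. The intervals of the 4 clusters overlap in both lists. With a promoter window of 500 bp, or with TSSs of coding transcripts only, HoxC fell to 1 of 9 (11.1%). By position, 4 of 12 genes of paralogue groups 1 to 4 had a summit in the stricter list (33.3%), 3 of 11 of groups 5 to 8 (27.3%) and 2 of 16 of groups 9 to 13 (12.5%). The pseudoreplicated list gave 4 of 12, 6 of 11 and 9 of 16, so the order of the groups turned round between the lists, and the intervals again overlap. In the stricter list the window of 500 bp, and likewise the TSSs of coding transcripts only, left 1 of 11 in groups 5 to 8 (9.09%), below the 12.5% of groups 9 to 13.

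**Figure D2:**
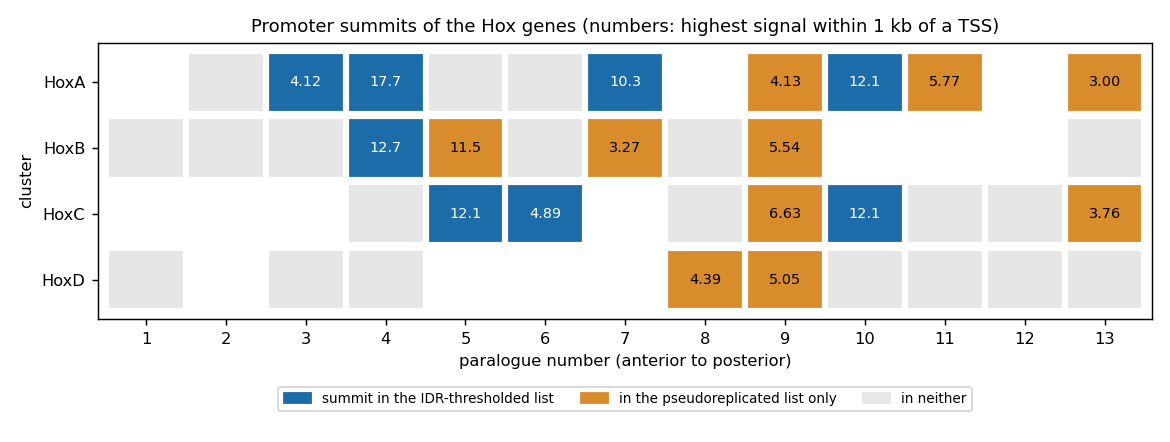
Hox genes by cluster (rows) and paralogue number (columns), coloured by whether a promoter summit is in the IDR-thresholded list (blue), the pseudoreplicated list only (orange) or neither (grey); numbers are the highest promoter signal, and a blank square means only that nothing is drawn there. All 4 genes of paralogue group 9 are orange, with signals of 4.13 to 6.63, and no HoxD gene is blue.

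In the anterior groups 1 to 4, Hoxa4 carried the strongest Hox promoter. Its summit lay at −209 bp from the TSS, negative meaning upstream, with a signal of 17.7 and a −log10 p of 148, and the sequence printed above shows GGGCGGG, the KLF/SP motif, in 2 places. Hoxb4, known for expanding blood stem cells when overexpressed, had 12.7 and was the only HoxB gene called in the stricter list. Hoxa3, needed for the thymus and parathyroid to form, was called on 2 weak peaks: a summit of 4.12 lay 973 bp downstream of one of its 4 TSSs, and one of 3.95 lay at −5 bp from the same TSS. Those signals stand at percentiles 2.67 and 2.22 of all peaks of the list. Hoxa2, Hoxb1, Hoxb2, Hoxb3, Hoxc4, Hoxd1, Hoxd3 and Hoxd4 had no promoter summit in either list.

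In the central groups 5 to 8, Hoxa7 had a summit 39 bp downstream of its TSS with a signal of 10.3 and a −log10 p of 140.1. The peak ranked higher by −log10 p, at percentile 56.6, than by signal, at percentile 32.6. A second peak of 5.27 lay at another Hoxa7 TSS. Hoxc6 was called on a shoulder of 4.89 at 865 bp downstream of its TSS, while the main summit of the same peak, 17.0, lay 1100 bp downstream and so beyond the limit of 1 kb. Hoxc5 was called on the peak of Hoxc10, at −825 bp from its own outermost TSS, the start of a gene model that overlaps those of several other HoxC genes.

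Hoxb5, a gene that marks long-term blood stem cells in mice, had the strongest promoter peak absent from the stricter list. Its signal was 11.5 and its −log10 p 52.3, but its −log10 IDR of 0.861 lay under the lowest value of the stricter list, 1.30. The −log10 p was 16.7 in one of the inputs of the IDR comparison and 37.4 in the other. Hoxb7 at 3.27 and Hoxd8 at 4.39 were likewise in the pseudoreplicated list only. Hoxa5, Hoxa6, Hoxb6, Hoxb8 and Hoxc8 were in neither. Hoxb8, which holds myeloid progenitors in an immature state when forced on, had no summit within 1 kb of a TSS. The nearest summit to its 5′ end lay 2.95 kb away in the stricter list and 2.72 kb away in the pseudoreplicated list, at a peak of signal 10.8.

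In the posterior groups 9 to 13 the stricter list called Hoxa10 and Hoxc10, both at a signal of 12.1. Hoxa10, which acts in the uterus and in blood progenitors, had its summit 255 bp downstream of a TSS, and Hoxc10 had its summit at −178 bp. All 4 genes of group 9 were called in the pseudoreplicated list only, with signals of 4.13 for Hoxa9, 5.54 for Hoxb9, 6.63 for Hoxc9 and 5.05 for Hoxd9. Hoxa9 is a driver of self-renewal in blood progenitors and acute leukaemia. Hoxa11 at 5.77, Hoxa13 at 3.00 and Hoxc13 at 3.76 were also in that list only. Hoxb13, Hoxc11, Hoxc12, Hoxd10, Hoxd11, Hoxd12 and Hoxd13, among them the digit gene Hoxd13 and the prostate gene Hoxb13, were in neither.

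Where a Hox promoter was open its peak was weak for a promoter. The median promoter signal was 12.1 over the 9 Hox genes in the stricter list and 17.3 over the 11456 protein-coding genes with a summit, which puts the Hox median at percentile 20.8 of those genes. Hoxa4 alone reached the median of all coding genes. A low median was not particular to Hox genes in that list. The 10 regulatory T cell markers stood at 9.17 and the 9 other developmental homeobox genes with a summit at 9.16. Of the other clustered families, histone genes stood at 12.5 and protocadherins, above the Hox median, at 18.5. In the pseudoreplicated list the medians were 5.77 for 19 Hox genes and 16.6 for 12560 protein-coding genes.

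Although few promoters were open, the clusters held more peaks per length than the genome. The 4 windows had 21 peaks of the stricter list, or 3.22 per 100 kb (exact Poisson 95% interval 1.99 to 4.92), against 1.27 over all chromosomes. Peaks covered 1.86% of the 4 windows, with HoxD lowest at 0.837%, and 0.918% of all chromosomes. The pseudoreplicated list had 52 peaks in the 4 windows, 7.98 per 100 kb against 2.16. Genes are denser there, with 39 Hox genes in 652 kb against 21938 protein-coding genes in 2725521 kb of all chromosomes. The part of gene density in the peak rate was not tested. The clusters also differ from the genome in composition, with 49.3% against 41.7% G and C, a CpG ratio of 0.401 against 0.190 and 18.2% against 36.4% of bases in repeats; the part of composition in the peak rate was not tested.

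**Figure D3:**
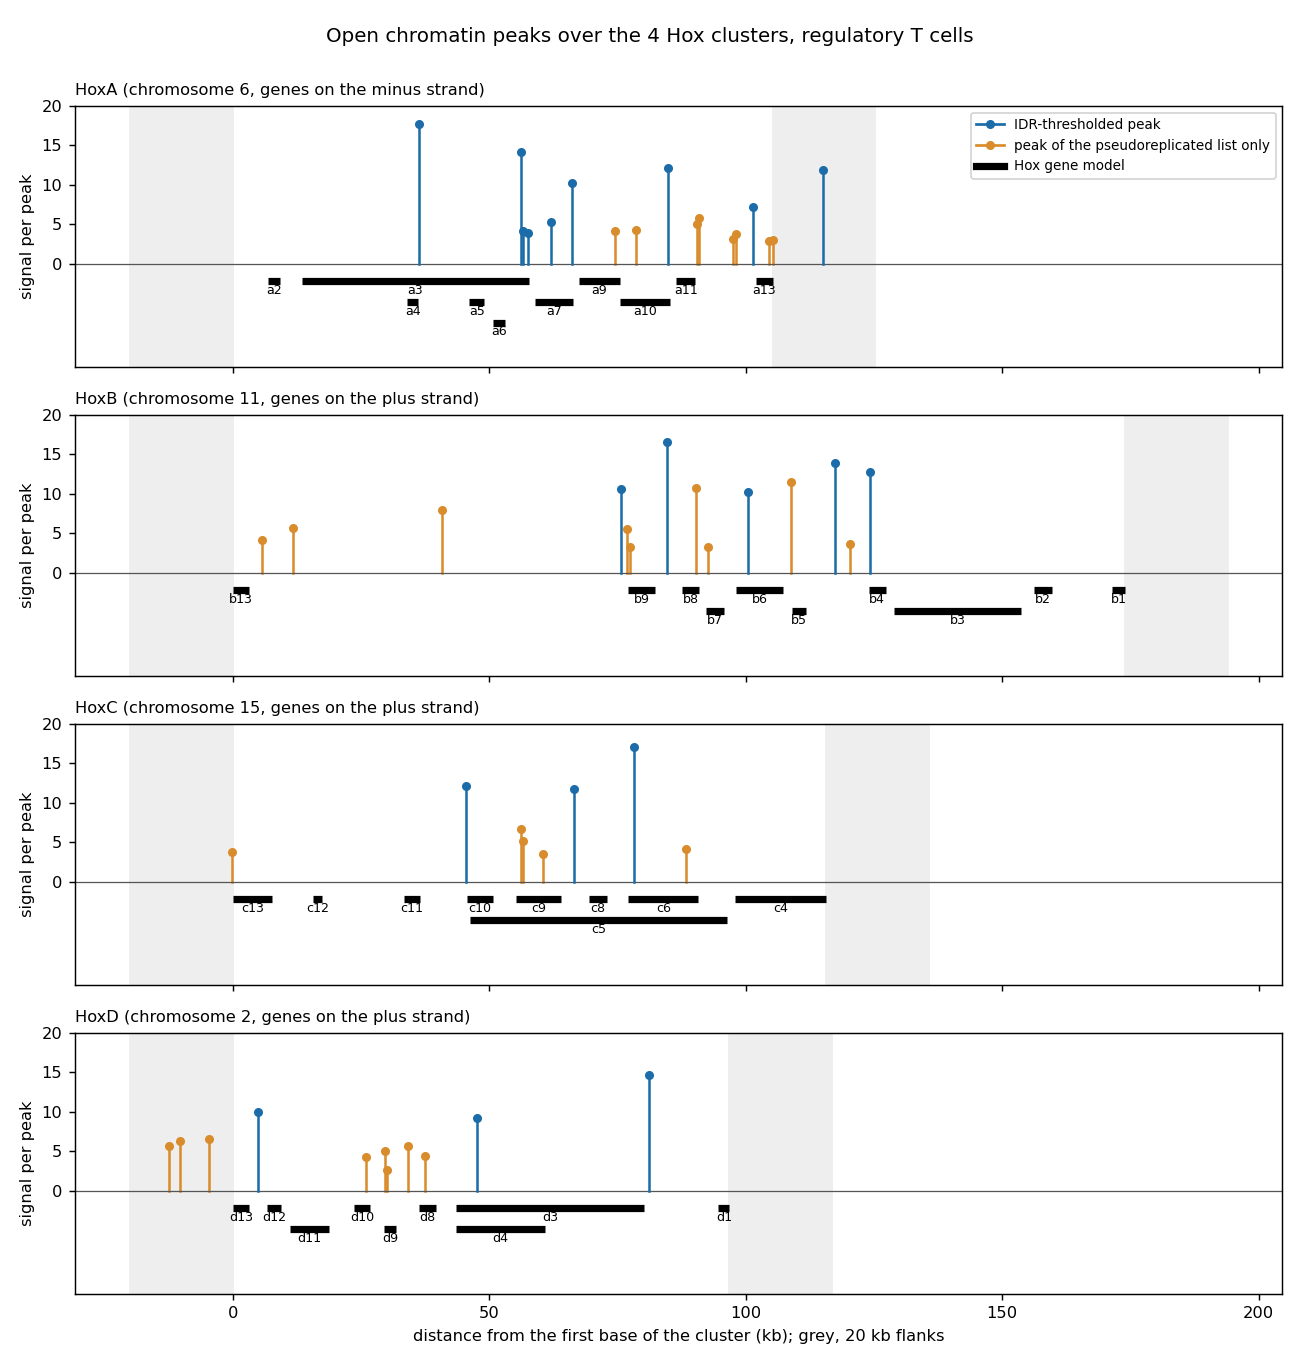
Peaks over the 4 clusters (stems; height is the authors' signal, x axis in kb from the first base of the cluster) above the Hox gene models (black bars), with the 20 kb flanks in grey. Of the 21 peaks of the stricter list (blue) 20 are drawn, and long stretches such as Hoxb13 to Hoxb9 have none.

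HoxA again stood highest, with 10 peaks or 6.88 per 100 kb (3.30 to 12.7), against 5 in HoxB (2.34), 3 in HoxD (2.19) and 3 in HoxC (1.93). The intervals of HoxB (0.759 to 5.45), HoxD (0.452 to 6.41) and HoxC (0.397 to 5.63) include the 1.27 of all chromosomes. In the pseudoreplicated list the intervals of all 4 clusters lay above 2.16, with the lowest limit, 2.22, in HoxC. The peaks were unevenly placed. In HoxA the longest stretch without one was 32.7 kb, ending at the Hoxa4 peak, and in HoxB 75.6 kb from the start of Hoxb13 to the peak before Hoxb9 had none. In the pseudoreplicated list the longest empty stretch of HoxB was at its other end, 49.5 kb from the Hoxb4 peak to the end of Hoxb1. HoxD had 42.5 kb without a peak of the stricter list, from its first peak to the Hoxd3os1 promoter, and HoxC had 45.3 kb from the start of Hoxc13 to the Hoxc10 peak.

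Few peaks lay just outside the clusters. The cluster bodies held 4.07 peaks of the stricter list per 100 kb, and the first 50 kb outside held 0.250 (1 peak, interval 0.00633 to 1.39). Between 50 and 100 kb out the rate was 1.50, between 100 and 200 kb 2.25, and between 200 and 500 kb 1.71. That single peak, of signal 11.9, lay at −9.79 kb from Hoxa13, on the outer side of the cluster. With the pseudoreplicated list the rates were 9.35 in the bodies and 2.25 in the first 50 kb, close to the 2.16 of all chromosomes.

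**Figure D4:**
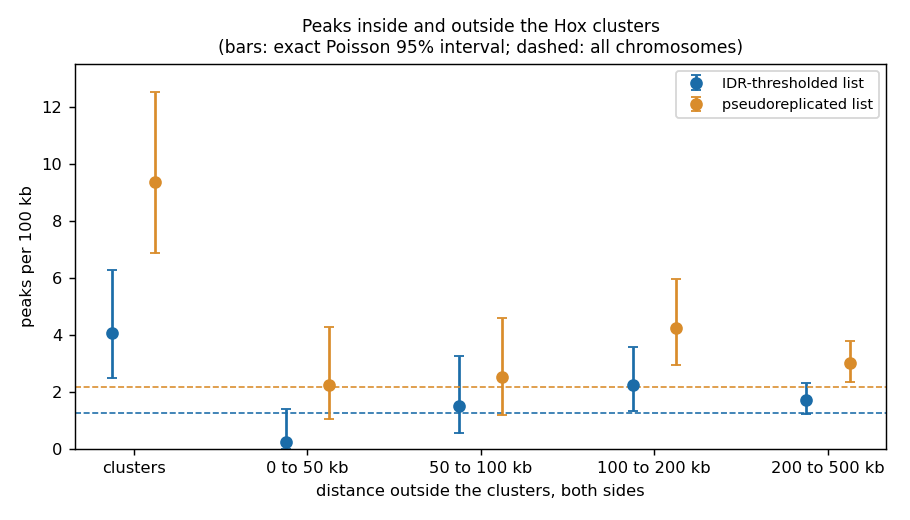
Peaks per 100 kb (y axis) inside the 4 clusters and at increasing distance outside them on both sides (x axis), for the IDR-thresholded (blue) and pseudoreplicated (orange) lists, with exact Poisson 95% intervals and the rate over all chromosomes as dashed lines. The stricter list falls to 0.250 in the first 50 kb outside, against 4.07 in the clusters.

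The nearest protein-coding genes outside the clusters were of both kinds. Skap2, an adaptor protein of immune cells, had a promoter signal of 23.2, Calcoco1 26.3, the DNA repair enzyme Smug1 22.1 and Mtx2 12.6. The homeobox genes Evx1 and Evx2, which adjoin HoxA and HoxD, had no promoter summit in either list, nor did Ttll6. Skap1, another T cell adaptor, had one of 3.93 in the pseudoreplicated list only.

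The 21 window peaks were weak against the rest of their list. Their median signal was 11.9 against 13.2 for all peaks, and their median −log10 p was 62.2 against 115. Of the 21, 6 reached the median signal of the list and 5 its median −log10 p. The range of signal ran from 3.95 at Hoxa3 to 17.7 at Hoxa4, and the highest −log10 p, 189.6, belonged to the peak in the Hoxa3 intron that also underlies the antisense gene Hoxaas3. Fewer of them passed the IDR cut: 31 of the 52 pseudoreplicated window peaks (59.6%) had no peak of the stricter list under them, against 41.3% of all pseudoreplicated peaks. All 21 were in the ranked list, with −log10 IDR between 1.33 and 3.04.

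**Figure D5:**
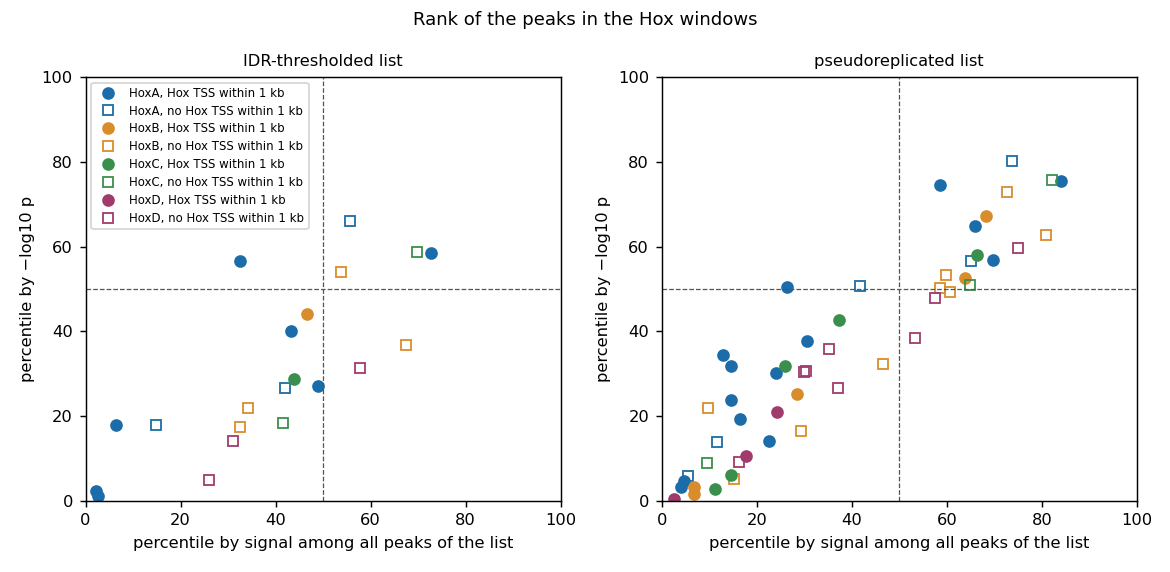
Each window peak by its percentile of signal (x axis) and of −log10 p (y axis) among all peaks of its list, coloured by cluster and filled where a Hox TSS lies within 1 kb; dashed lines mark the medians. Most of the 21 peaks at the left and of the 52 at the right lie below both medians.

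By annotation 11 of the 21 window peaks were at a promoter (52.4%, against 39.6% of all peaks), 1 in an exon, 4 in introns and 5 between genes. Promoters of noncoding genes were among them: Hoxd3os1, antisense to Hoxd3, had a signal of 9.18, and the unclassified transcript 9530018H14Rik next to Hoxa13 had 7.24. The strongest HoxD peak, 14.6, lay in an exon of the noncoding RNA Haglr. Of the other protein-coding models in the windows, Gm28308 shared the 3.95 summit of Hoxa3, and 5730596B20Rik and Gm28230 had none in either list. Hotair and Hottip, noncoding RNAs known to act on HoxD and HoxA in human cells, had no promoter summit in either list. Within 20 kb a Hox gene had a median of 2 peaks of the stricter list, the same as a protein-coding gene at large, and 6 against 3 in the pseudoreplicated list.

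Few of the searched motifs were found at the window peaks. Both strands were searched within 100 bp of the summit for the consensus of CTCF (CCNNNAGGNGGC), of ETS factors (CCGGAAG), of RUNX factors (TGTGGTT), of KLF and SP factors (GGGCGGG) and of NRF1 (GCGCNTGCGC). The others were YY1 (AAGATGGCG), HOX with PBX (TGATTNAT), MEIS (TGACAGNT), GATA factors (AGATAAG), AP-1 (TGANTCA) and the retinoic acid response element (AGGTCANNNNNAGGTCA). KLF/SP was in 4 of 21 (19%), against 17.8% of all peaks, and MEIS in 2 (9.52%), against 3.86%. AP-1 was in 1, the Hoxc10 peak (4.76%), against 9.63%. ETS, RUNX, NRF1, YY1, HOX-PBX, GATA and the retinoic acid element were in none, which allows shares of up to 16.1%. Over all peaks ETS stood at 8.56% and RUNX at 9.09%. Over all promoter summits ETS stood at 15.8%, and its 0 of 11 at window promoter summits allows up to 28.5%. KLF/SP was in 2 of 11 window promoter summits (interval 2.28 to 51.8%), against 37.0% of all promoter summits. Away from promoters it was in 2 of 10 window summits (interval 2.52 to 55.6%), against 5.22% of all such summits. The near-equal KLF/SP shares over all peaks thus join opposite orders, and both intervals include the share of all summits of that kind. Among the 52 pseudoreplicated window peaks ETS was in 4 (7.69%), against 6.20% of all peaks of that list, and MEIS in 2 (3.85%), against 4.04%. For both motifs the order of the Hox share and that of all peaks thus turned round between the lists. RUNX stayed in none of the 52, which allows up to 6.85%, against 9.47% of all peaks and 4.88% of promoter summits of that list. AP-1 was in 2 of the 52 (3.85%, interval 0.469 to 13.2%), against 10.4%. A match is a description of letters and not a bound site.

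The CTCF consensus was in 1 of 21 window peaks (4.76%, interval 0.120 to 23.8%), against 7.58% of all peaks. That match is the capital run at Hoxd3os1 printed above. It was in 3 of 52 pseudoreplicated peaks (5.77%), against 7.60%, the others being the Hoxb5 and Hoxa11 promoters. With a looser consensus, CC, 3 free bases, AG, 2 free bases and GGC, it was in 5 of 21 (23.8%), against 15.5% of all peaks, adding the peaks of Hoxa7, Hoxa10, the Hoxb9 to Hoxb8 stretch and Hoxd12. A weight matrix learned from 2679 strict matches outside the windows, added after the sequences had been read, matched 2 of 21 (9.52%), against 12.8% of all peaks, at a score that 1% of windows 1 kb away pass, and 0 of 21, against 3.80%, at a score that 0.1% pass. Whether the share of the Hox peaks was above or below that of all peaks thus turned on the letters required. The matrix count also rests on where its score was set. Just under the score that 1% of windows pass lay the peaks of Hoxc10 at 9.73 and Hoxa10 at 9.48. The intron peak nearest Hoxc8 had 9.17, and 1 of the 2 matches, at 9530018H14Rik, passed at 10.3. Shares at a lower score were not computed, for the Hox peaks or for all peaks.

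The clusters also carry microRNA genes, whose mature sequences from RefSeq (GRCm38.p6) are shown with the seed, bases 2 to 8, in capitals because they fall into pairs by seed across clusters.
miR-196b-5p, HoxA: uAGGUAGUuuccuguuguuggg
miR-196a-5p, HoxB and HoxC: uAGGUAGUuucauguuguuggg
miR-10a-5p, HoxB: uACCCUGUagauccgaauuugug
miR-10b-5p, HoxD: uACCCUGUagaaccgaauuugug
The miR-196 microRNAs are known to target Hox messenger RNAs. Mir196b lies under the pseudoreplicated Hoxa9 peak of signal 4.13, so that promoter call cannot be told apart from one at the microRNA. The mature miR-10a-5p lies 1.04 kb from the nearest summit in both lists, and miR-10b-5p 10.1 kb.

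The promoters of Polycomb, trithorax, insulator and cohesin genes were mostly open, in contrast to those of the Hox genes. Of 29 Polycomb genes 28 had a promoter summit, led by Ezh1 at 25.8, Phc2 at 24.7 and Pcgf3 at 23.3, and Pcgf2 had 2.17 in the pseudoreplicated list only. Of 12 trithorax genes 11 did, with Wdr5 at 19.2, Ash2l at 18.7 and Hcfc1 at 18.7, and the demethylase gene Kdm6b had none. All 10 insulator and cohesin genes did, with Smc1a at 21.4, Smc3 at 21.1 and Wapl at 20.1. These shares stand beside the 52.2% of all protein-coding genes.

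Of the 9 TALE genes, whose homeodomain proteins bind DNA together with Hox proteins, 7 had a promoter summit (77.8%, interval 40.0 to 97.2%). Pbx4 had 22.9, Pknox1 16.1 and Pbx3 15.8, and Pbx2 at 5.75 and Meis2 at 5.84 were in the pseudoreplicated list only. Of 13 retinoid and caudal regulators, which switch Hox genes on in embryos, 3 did (23.1%, interval 5.04 to 53.8%). These were the receptor genes Rara at 14.9, Rarg at 12.3 and Rxrb at 11. The intervals of the TALE list and of the retinoid and caudal list both include the 52.2% of all protein-coding genes. Cdx1, Cdx2 and Cdx4 had none in either list. Among other developmental homeobox genes with a promoter summit were Pitx3 at 11.4 and Lhx2 at 10, and Gbx1 had none.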

How the data were processed

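ATAC-seq of regulatory T cells gave 2 libraries, technical replicates of 1 biological replicate. The authors deposited 3 peak lists on mm10, which per the file listings derive from 1 shared alignment, so peaks were called on pooled reads. No aligner, peak caller or Tn5 read shift is named in the sources used here. Each deposited list gives a signal value, whose reference is not stated, and a −log10 p per peak. The deposited ranked list also gives a score, the −log10 of the IDR, and the −log10 p of 2 inputs that are not identified.

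Lines with the same interval were reduced to 1 peak, placed by its summit of highest signal, and promoter calls used every listed summit within 1 kb of a TSS in GENCODE M21 (GRCm38.p6). Coordinates are 1-based. Window sequences were read from GRCm38.p6 and microRNAs from RefSeq. Shares carry exact Clopper-Pearson and rates exact Poisson 95% intervals, which cover counting error only. No test was made. The counting steps were tested on simulated data. Python 3.11.15, numpy 2.4.6, scipy 1.17.1 and matplotlib 3.10.9 were used. The Hox genes, the gene lists and the motifs were chosen with earlier results of these data known. By rule the text names the Hox genes, the genes in the windows with a promoter peak, and of each list the 3 highest signals and up to 3 genes without a peak; 1 Hox gene and 1 list gene among these count in the totals but are not reported here. The CTCF weight matrix (22 bp) was added after the window sequences had been read and some CTCF-like letters had been noticed in them. It was built from matches to the strict consensus and so keeps its fixed letters, and it was neither re-estimated nor given another score after its result was seen.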

Additional observations from a re-analysis of the deposited data

How the results depend on the processing

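The Hox promoter share stayed below that of all protein-coding genes in 9 of 9 alternatives, from 5.13% to 48.7%. The peak rate of the 4 windows together stayed above that of all chromosomes in 6 of 6, though these alternatives share peaks. At or above the median signal only 6 window peaks were left, and at or above the median −log10 p only 5. No interval was computed for the rates under these cuts. With the pseudoreplicated list, the Hox share was 48.7%, that of groups 9 to 13 56.2%, that of the regulator and homeobox lists together 57.8% (44.2% in the stricter list), the window rate 7.98 per 100 kb, the covered share 3.77% and the median per locus 6. Keeping only peaks at or above the list's median signal, these were 5.13%, 0% (8.33% for groups 1 to 4), 26.6%, 0.921, 0.670% and 1. Keeping only those at or above its median −log10 p, they were 7.69%, 0% (8.33% for groups 1 to 4), 35.7%, 0.767, 0.639% and 0. Over all chromosomes both cuts left 0.635 peaks per 100 kb, with 0.529% covered under the signal cut and 0.566% under the −log10 p cut. By −log10 p, HoxA at 2.06 and HoxC at 0.642 were above 0.635, and HoxB at 0.467 and HoxD at 0 were below it. Counting every summit gave 5.98 per 100 kb over the 4 windows. With 5′ ends only the regulator and homeobox lists stood at 33.8%, and 5 kb on either side gave a median of 1 per locus. The cause was not tested, beyond the fewer or more peaks that each alternative holds by construction.

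The CTCF share lay between 4.76% and 23.8% in 5 alternatives and below that of all peaks in 4; the exception was the looser consensus. Of 3 alternatives added after the sequences had been read, the weight matrix gave 9.52% and the matrix with the pseudoreplicated list 7.69%. The matrix with the stricter score gave 0%, and each of the 3 was below all peaks. A lower score was not tried, although some window peaks fell just short. The matrix was learned from matches to the strict consensus, so these values are no separate check on the strict share. In all, 131 of 182 alternative values stayed within the counting spread. For the main results 44 of 68 did. The 182 also hold 114 values of single lists and clusters, where small counts make the spread wide. No paired analysis was possible because there is 1 group, and no replicate could be left out because the peaks were called on pooled reads. A promoter window of 500 bp, or TSSs of coding transcripts only, gave 11.1% for HoxC and 9.09% for groups 5 to 8. With 39 genes, 21 peaks and 1 biological replicate, differences between clusters or paralogue groups were not tested.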
